A study of Mus musculus with 9 samples.

Results

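The 10 genes described here belong to the TGF-beta and activin pathways and were followed in bulk RNA sequencing of whole mouse retinas. They are the ligand genes Tgfb1, Tgfb2 and Tgfb3, the activin A subunit gene Inhba, the receptor genes Tgfbr1 and Tgfbr2, the latent binding protein gene Ltbp1, the activin inhibitor genes Fst and Fstl3, and the inhibitory Smad gene Smad7. They were chosen by symbol, and all 10 were found among the 47729 gene identifiers of the count table. The Yap CKO mice carried floxed Yap alleles and the transgene Rax-CreERT2, whose Cre needs tamoxifen and acts in Müller cells, the main glia of the retina. The control mice carried the same floxed alleles without the Cre, per the design text, while their genotype label reads Yap CKO, with no Cre named. Both groups were on a C57Bl6/J background, received 4-hydroxytamoxifen at P10 and were taken at P60, and each of their libraries came from 1 retina. The C57 group was wild type C57Bl6/J at P30, was re-used from an earlier series, and its tamoxifen status is not stated separately. Each group had 3 libraries. The names of the P60 libraries hold the letters MNU, which in the published study stand for N-methyl-N-nitrosourea, an agent that kills photoreceptors, while the labels give neither a dose nor a time for it. Age, floxed alleles, source and the MNU named in the library names therefore differ between the P60 groups and C57 and cannot be told apart, nor can any difference in tamoxifen. The labels do not say whether each retina came from a separate animal, so p-values measure the spread between these libraries.

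TGF-beta ligands are secreted in a latent form, held by proteins such as Ltbp1, and are set free by integrins or proteases. The freed ligand joins the type II receptor Tgfbr2 and the type I receptor Tgfbr1, which phosphorylate Smad2 and Smad3; these move with Smad4 to the nucleus, where Smad7 is among the induced genes and feeds back on the receptors. Activins, which are dimers of inhibin beta subunits such as the one from Inhba, use other receptors but the same Smads, and are trapped outside the cell by follistatin (Fst) and the follistatin-like protein Fstl3. In the retina, Tgfb2 is known as the main ligand isoform, and TGF-beta signalling is known in rodents for restraining the division of progenitors and Müller glia. Yap is a transcriptional co-activator that binds DNA through TEAD proteins.

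Total counts were 34739679 to 37629264 in the P60 libraries and 13760765 to 16808499 in the C57 libraries, so low genes were measured less precisely in C57. Yap1, the targeted gene, had 15.2, 21.4 and 24.0 CPM (read counts per 1e6 reads, TMM-scaled) in Yap CKO libraries, against 66.3, 60.4 and 56.9 CPM in control libraries, and 23.9, 25.8 and 31.1 CPM in C57 libraries. Its log2 fold change, Yap CKO over control, was -1.60 ± 0.166 (SE, n = 3 each; edgeR adjusted p = 0.0327), while Yap CKO against C57 gave -0.41 (adjusted p = 0.126). The adjusted p of the first difference lay between 0.106 and 0.167 without control 1, control 2 or Yap CKO 2, at similar fold changes. Summed over 10 rod marker genes, the level came to between 1029 and 22504 CPM in Yap CKO, between 4071 and 21217 CPM in control and between 102709 and 121558 CPM in C57, and 6 Müller cell marker genes to 1846 to 2212, 2016 to 2313 and 6224 to 6398 CPM in the same order of groups. The Müller markers did not fall alike: Glul had means of 769, 934 and 4144 CPM in that order, and Car2 had 568, 508 and 585 CPM. Of the 6, 5 were lower than C57 in each P60 group (edgeR adjusted p under 0.05), as were 20.2% (Yap CKO) and 22.4% (control) of all genes tested. Gfap, an astrocyte marker here that reactive Müller cells can also express, had 630, 300 and 57.6 CPM. In bulk tissue, fewer cells of a type and less RNA per cell cannot be told apart. Yap CKO library 3 stood apart with the lowest rod sum and with 8 lens genes summing to 1090 CPM, against at most 24.7 CPM in each of the other 8 libraries. Y-linked transcripts were present in Yap CKO 3, in the 3 control libraries and in C57 2, and Xist in Yap CKO 1 and 2 and in the remaining C57 libraries. Sex is therefore partly confounded with the Yap comparison and with the comparison of control with C57.

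Within each library, Tgfb2 was the highest of the 10 genes per length. On the scale of CPM per kb of merged exons, its level was 50.5 ± 12.3 in Yap CKO, 53.8 ± 1.70 in control and 23.5 ± 2.68 in C57 (SD, n = 3 each). Tgfb3 followed with levels of 9.20 ± 1.24, 9.02 ± 0.226 and 10.2 ± 0.688 CPM per kb in the same order of groups, and Tgfbr1 with 5.21 ± 0.00759, 6.18 ± 0.161 and 7.11 ± 1.55 CPM per kb. In none of the 3 groups did these top 3 genes overlap with their neighbours in the order. In Yap CKO, Smad7, Fstl3, Tgfbr2, Ltbp1 and Tgfb1 came next and overlapped from neighbour to neighbour. In control, Fstl3 came next without overlap at 4.57 ± 0.642 CPM per kb, above a run of Smad7, Ltbp1, Tgfbr2 and Tgfb1 whose neighbours overlapped. Fst and Inhba took the last 2 places in every group, at 0.482 ± 0.158 and 0.178 ± 0.0359 CPM per kb in Yap CKO, 0.355 ± 0.118 and 0.239 ± 0.0496 CPM per kb in control, and 0.0877 ± 0.0499 and 0.173 ± 0.0355 CPM per kb in C57. With the longest transcript as the length, Tgfb2, Tgfb3 and Tgfbr1 kept the first 3 places, but Tgfb3 and Tgfbr1 overlapped in C57.

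**Figure D1:**
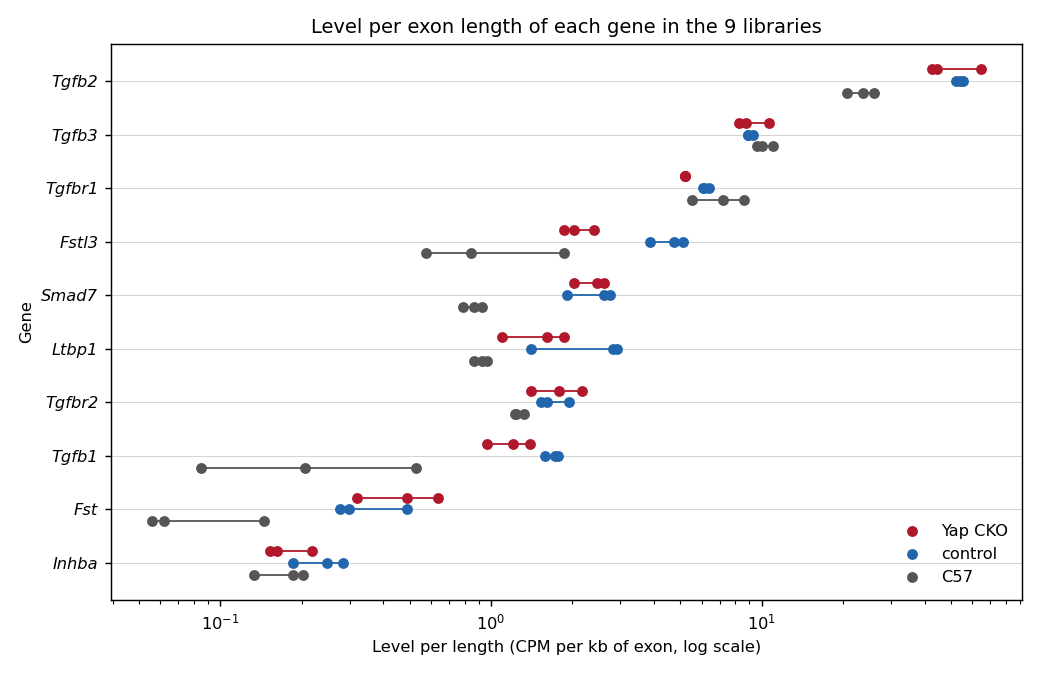
Level per length of the 10 genes, in CPM per kb of merged exons on a log axis, with 1 point per library and a line over the range of each group (red Yap CKO, blue control, grey C57). Tgfb2 lies highest in all 9 libraries, and Fstl3 shows the gap between the Yap CKO and control libraries.

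The member that passed the test between the 2 P60 groups was Fstl3, a secreted antagonist of activins and myostatin. Fstl3 lies on the plus strand of chr10:79777272-79782630 (GRCm38), with 6 merged exons. It had 4.55, 4.94 and 5.85 CPM in Yap CKO, against 9.44, 11.6 and 12.5 CPM in control, and 4.54, 1.41 and 2.06 CPM in C57. The Yap CKO libraries all lay below the control libraries and above the C57 libraries, and C57 1 reached nearly the lowest Yap CKO value. The counts behind these levels were 180, 191 and 235 reads in Yap CKO, 359, 465 and 516 reads in control, and 53, 19 and 29 reads in C57. Fstl3 fell in Yap CKO against control by 1.13 ± 0.155 on the log2 scale (SE; edgeR adjusted p = 0.0496), a level 0.456 times that of control. It rose by 2.11 ± 0.362 in control against C57 (adjusted p = 0.00248), and was 0.96 ± 0.377 above C57 in Yap CKO (adjusted p = 0.0719). Without C57 1, the highest C57 library, these 2 values were 2.70 (adjusted p = 0.000151) and 1.56 (adjusted p = 0.00221). These 3 comparisons share libraries and are not independent of each other.

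The direction of the Fstl3 difference between Yap CKO and control held in all 16 alternative settings, from -1.25 to -1.04, but its adjusted p passed in 5 of them and was as high as 0.254. It missed the threshold without control 1, 2 or 3 or Yap CKO 1 or 2 (adjusted p between 0.0956 and 0.252) and passed without Yap CKO 3 (adjusted p = 0.0131). Yap CKO 3, the Yap CKO library with Y-linked transcripts as in the controls, had 5.85 CPM, below the lowest control library at 9.44 CPM. That library also stood apart in its rod and lens genes, and the part of sex in the Fstl3 difference was not tested. The exons of Fstl3 share 1157 bases, 47.3% of their length, with Prss57 on the other strand; the strand setting of the counting is not given in the sources used here, and Prss57 itself had 18 to 22 reads in every P60 library. The authors' deposited table gives Fstl3 a log2 fold change of -1.12 with an adjusted p of 0.00822 for Yap CKO against control. That table comes from the same series and, by its name, holds genes preselected on this comparison, so it is not an independent test.

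The 250 bases upstream of the annotated start are shown for 3 genes, so that the gene lowered in Yap CKO (Fstl3) can be read beside the most abundant member (Tgfb2) and the member with the largest change in control against C57 (Tgfb1). The sequences are from RefSeq (GRCm38.p6), and the table of windows used here matched 7 of the 10 genes, with 9 windows in all. They run 5′ to 3′ on the strand of the gene. Capitals mark the Smad box CAGACA or its reverse complement. The windows are chr10:79777024-79777273 (plus strand) for Fstl3, chr1:186705990-186706239 (minus strand) for Tgfb2 and chr7:25686752-25687001 (plus strand) for Tgfb1.
Fstl3: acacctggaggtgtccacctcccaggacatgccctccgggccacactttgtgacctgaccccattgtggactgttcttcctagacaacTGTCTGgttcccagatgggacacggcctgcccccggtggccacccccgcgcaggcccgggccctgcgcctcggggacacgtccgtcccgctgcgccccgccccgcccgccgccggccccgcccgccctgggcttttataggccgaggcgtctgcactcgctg
Tgfb2: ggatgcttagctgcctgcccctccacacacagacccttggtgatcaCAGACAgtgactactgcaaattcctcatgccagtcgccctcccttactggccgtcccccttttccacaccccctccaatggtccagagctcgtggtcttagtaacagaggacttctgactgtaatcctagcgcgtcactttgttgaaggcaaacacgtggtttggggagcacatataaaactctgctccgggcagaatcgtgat
Tgfb1: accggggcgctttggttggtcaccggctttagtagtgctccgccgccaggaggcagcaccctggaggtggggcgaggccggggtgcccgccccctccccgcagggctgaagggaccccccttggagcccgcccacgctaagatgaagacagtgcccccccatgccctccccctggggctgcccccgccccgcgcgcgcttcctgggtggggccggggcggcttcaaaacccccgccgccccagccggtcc
The Smad box began 162 bases upstream of the start in Fstl3, on the strand opposite to the gene, and 204 bases upstream in Tgfb2, on the strand of the gene. The Tgfb1 window held none. Of 32851 promoter windows of the same length, 17.1% held this motif on either strand. The TEAD motif GGAATG, present in 12.6% of all windows, and the AP-1 motif TGANTCA, present in 6.75%, were found in none of the 9 windows of the pathway genes on either strand. The 3 motifs were searched as letters, including overlapping matches, and a match or its absence in these windows says nothing on binding.

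Fst, which encodes follistatin and lies on the minus strand of chr13:114452290-114458951, also had its lowest levels in C57, while its mean was higher in Yap CKO than in control. It had 2.25, 2.92 and 1.47 CPM in Yap CKO, 1.37, 1.27 and 2.25 CPM in control, and 0.257, 0.666 and 0.284 CPM in C57. The Yap CKO and control libraries overlapped, and the 3 C57 libraries lay below all of them with 3, 9 and 4 reads. Between Yap CKO and control the log2 fold change was 0.43 ± 0.318 (adjusted p = 0.524). Fst rose in both P60 groups relative to C57, by 2.44 ± 0.445 in Yap CKO (adjusted p = 0.00340) and by 2.01 ± 0.437 in control (adjusted p = 0.00711). Per 100 Fstl3 reads there were 49.4, 59.2 and 25.1 Fst reads in Yap CKO, against 14.5, 10.97 and 18.02 in control and 5.66, 47.4 and 13.8 in C57. Each Yap CKO library lay above each control library in this ratio, which was chosen after the levels had been seen. The two-sided exact permutation test gave p = 0.1, the smallest that 3 against 3 libraries allow.

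**Figure D2:**
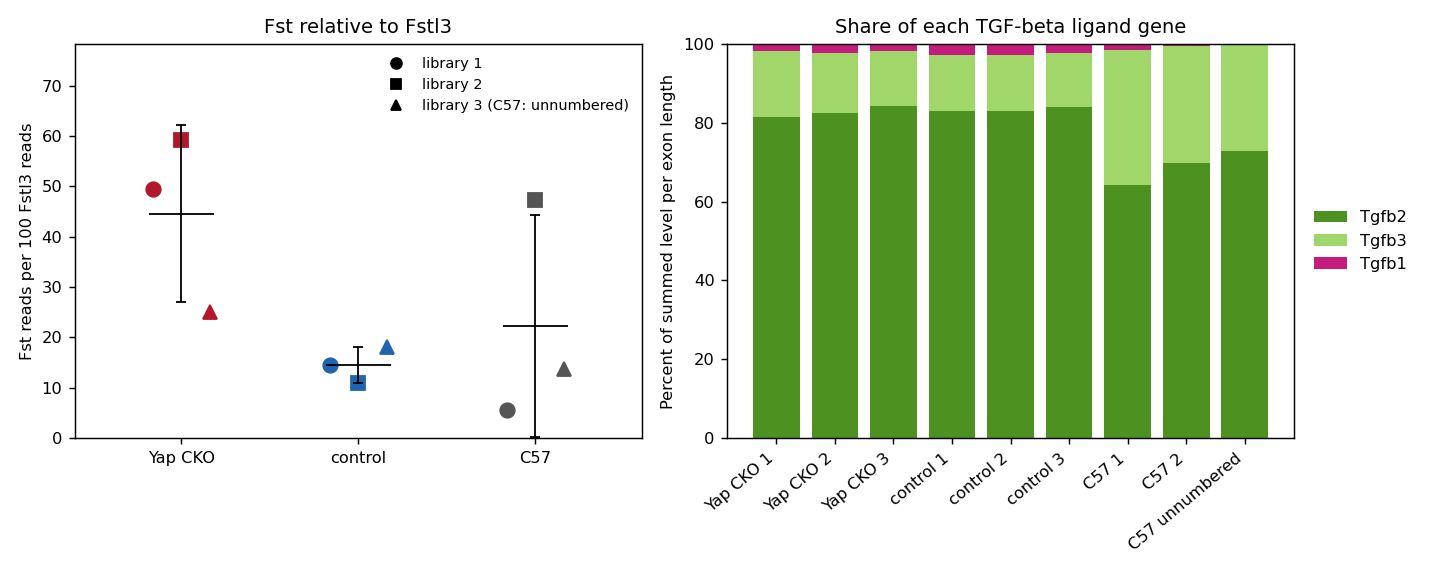
Left, Fst reads per 100 Fstl3 reads in each library, with the mean (long line) and SD (bar) of each group; right, the percent of the summed level per exon length of Tgfb1, Tgfb2 and Tgfb3 that each gene holds, with 1 bar per library. The Yap CKO libraries lie between 25.1 and 59.2 Fst reads and the control libraries between 10.97 and 18.02, and Tgfb2 holds most of the ligand level in all 9 libraries.

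Tgfb1, the ligand gene best known from immune and connective tissue cells, lies on the plus strand of chr7:25687002-25705077. It had 4.85, 6.10 and 7.04 CPM in Yap CKO, against 8.94, 8.65 and 7.95 CPM in control, and 2.66, 1.04 and 0.426 CPM in C57. The 3 groups did not overlap, with control highest and C57 lowest. The C57 levels rest on 31, 14 and 6 reads. The difference between Yap CKO and control was -0.51 ± 0.153 on the log2 scale, with an unadjusted p of 0.0110 and an adjusted p of 0.158. Tgfb1 rose by 2.17 ± 0.492 in Yap CKO against C57 (adjusted p = 0.00941) and by 2.70 ± 0.448 in control against C57 (adjusted p = 0.00213). Without C57 1 these values were 3.04 (adjusted p = 0.000506) and 3.57 (adjusted p = 0.000125).

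Tgfb2, on the minus strand of chr1:186622792-186705989, had 247, 257 and 374 CPM in Yap CKO, 312, 301 and 321 CPM in control, and 120.0, 137 and 151 CPM in C57. The control libraries were close to each other and lay within the range of the Yap CKO libraries, while all C57 libraries were lower. Yap CKO against control gave -0.09 ± 0.159 (adjusted p = 0.817). That value depended on Yap CKO 3, which had the highest Tgfb2 level, the lowest rod sum and the highest lens gene sum. Without that library the log2 fold change was -0.31 with an adjusted p of 0.0227, and without Yap CKO 1 it was 0.017. With the rod marker level as a covariate it was -0.18 (adjusted p = 0.220). The cause of the dependence on Yap CKO 3 was not tested. Tgfb2 rose by 1.11 ± 0.186 in Yap CKO against C57 (adjusted p = 0.00228) and by 1.22 ± 0.116 in control against C57 (adjusted p = 0.000186).

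Tgfb3, on the minus strand of chr12:86056745-86079041, behaved unlike the other ligand genes in the comparisons with C57. Its levels were 29.5, 27.9 and 35.9 CPM in Yap CKO, 31.4, 30.1 and 30.1 CPM in control, and 37.1, 33.8 and 32.6 CPM in C57. The log2 fold changes were 0.02 ± 0.101 for Yap CKO against control, -0.14 ± 0.143 for Yap CKO against C57 and -0.16 ± 0.103 for control against C57, with adjusted p of 0.941, 0.447 and 0.251. The control libraries all lay below the C57 libraries, without passing the test. On the per-length scale Tgfb3 held 15.3 ± 1.43% of the summed level of the 3 ligand genes in Yap CKO, 14.0 ± 0.443% in control and 30.2 ± 3.60% in C57. Tgfb2 held 82.7 ± 1.46%, 83.4 ± 0.640% and 69.0 ± 4.32%, and Tgfb1 held 1.97 ± 0.243%, 2.62 ± 0.199% and 0.826 ± 0.725%, in the same order of groups. The C57 mean for Tgfb1 rests on C57 1 at 1.64%, against 0.607% and 0.236% in the other C57 libraries. With the longest transcript as the length, the Tgfb1 shares were 3.42 ± 0.416%, 4.52 ± 0.339% and 1.47 ± 1.29%. The shares of all 3 genes were without overlap between each P60 group and C57 (two-sided exact permutation p = 0.1 for each, the smallest possible). Between Yap CKO and control, the Tgfb1 share was lower in every Yap CKO library, again with an exact permutation p of 0.1.

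Inhba, on the plus strand of chr13:16011851-16031621, was low, with 39 to 73 reads in the P60 libraries and 12 to 16 reads in the C57 libraries. It had 1.04, 1.40 and 0.971 CPM in Yap CKO, 1.58, 1.82 and 1.19 CPM in control, and 1.29, 1.18 and 0.852 CPM in C57. All 3 groups overlapped. The log2 fold changes were -0.43 ± 0.239 for Yap CKO against control (adjusted p = 0.393), 0.05 ± 0.297 for Yap CKO against C57 (adjusted p = 0.912) and 0.49 ± 0.276 for control against C57 (adjusted p = 0.181).

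**Figure D3:**
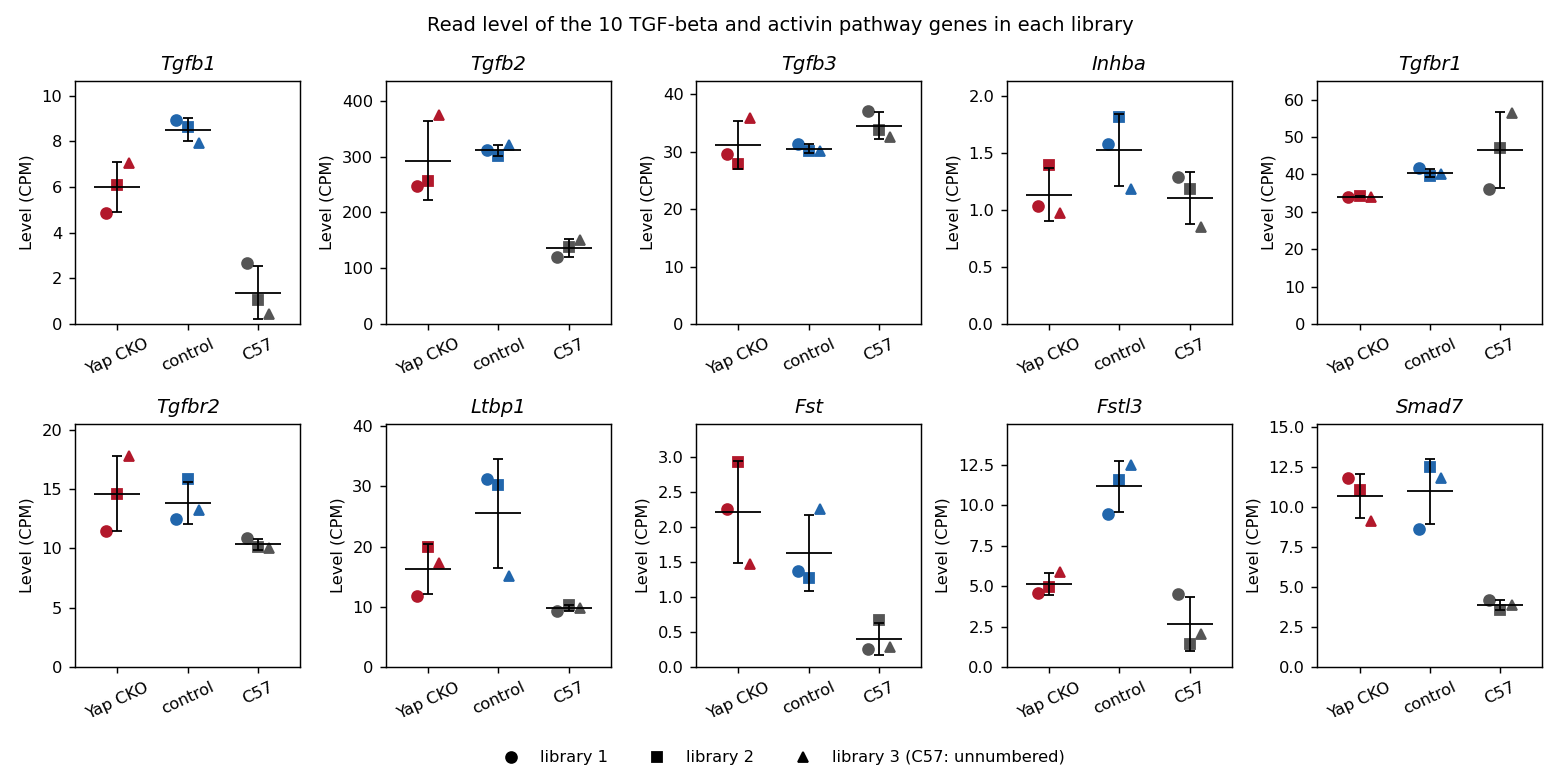
Level of each of the 10 genes in CPM, with 1 point per library, the group mean as a long line and the SD as a bar (red Yap CKO, blue control, grey C57; the vertical axes start at 0 and differ between genes). Fstl3, Tgfb1 and Tgfbr1 show no overlap between Yap CKO and control. Tgfb1, Tgfb2, Tgfbr2, Ltbp1, Fst, Fstl3 and Smad7 lie above every C57 library in both P60 groups, Fstl3 only narrowly in Yap CKO.

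The receptor genes differed from each other. Tgfbr1, the type I receptor gene, lies on the plus strand of chr4:47353222-47414931 and had 34.0, 34.1 and 34.0 CPM in Yap CKO, against 41.6, 39.6 and 40.1 CPM in control, and 36.1, 47.0 and 56.3 CPM in C57. The Yap CKO libraries agreed closely with each other and lay below every control library and every C57 library. The difference between Yap CKO and control was small, -0.25 ± 0.0594, with an unadjusted p of 0.00315 and an adjusted p of 0.107. Against C57 it was -0.44 ± 0.169 in Yap CKO (adjusted p = 0.0655) and -0.18 ± 0.162 in control (adjusted p = 0.385), and the wide C57 range limits both. Without C57 1, the lowest C57 library, both passed, with -0.60 (adjusted p = 0.00480) in Yap CKO and -0.33 (adjusted p = 0.0250) in control.

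Tgfbr2, the type II receptor gene that binds the ligand first, lies on the minus strand of chr9:116084293-116175360. It had 11.5, 14.6 and 17.8 CPM in Yap CKO, 12.5, 15.9 and 13.2 CPM in control, and 10.9, 10.1 and 10.01 CPM in C57. Yap CKO and control overlapped, and both lay above C57. The log2 fold changes were 0.07 ± 0.174 for Yap CKO against control (adjusted p = 0.881), 0.50 ± 0.194 for Yap CKO against C57 (adjusted p = 0.0669) and 0.44 ± 0.144 for control against C57 (adjusted p = 0.0367). The last call was lost in 7 of 15 alternatives, among them leaving out C57 2, the unnumbered C57 library or control 1, 2 or 3, with adjusted p up to 0.160.

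Ltbp1, whose protein tethers latent TGF-beta to the matrix, lies on the plus strand of chr17:75005568-75392512. It had 11.7, 19.9 and 17.2 CPM in Yap CKO, 31.2, 30.2 and 15.05 CPM in control, and 9.25, 10.4 and 9.87 CPM in C57. Control 3 lay under Yap CKO 2 and 3, so the P60 groups overlapped, while all P60 libraries lay above C57. The log2 fold change was -0.65 ± 0.338 for Yap CKO against control (adjusted p = 0.390; the authors' deposited table gives -0.64 with an adjusted p of 0.444). Ltbp1 rose by 0.73 ± 0.215 in Yap CKO against C57 (adjusted p = 0.0260) and by 1.39 ± 0.275 in control against C57 (adjusted p = 0.00468). The call against C57 in Yap CKO was lost in 4 of 15 alternatives, those without Yap CKO 2, Yap CKO 3 or C57 2 and the fit of all 9 libraries together, with adjusted p up to 0.111.

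Ciliary epithelium markers, from cells at the rim of the retina, were also lower in Yap CKO than in control. The 4 genes Optc, Msx1, Otx1 and Zic1 summed to 31.0, 26.8 and 44.0 CPM in Yap CKO, against 102, 103 and 48.5 CPM in control, and 17.9 to 26.5 CPM in C57, with control 3 the lowest control library, as for Ltbp1. The order of libraries was not shared within Yap CKO, where Yap CKO 2 had the lowest marker sum and the highest Ltbp1 level. All 4 were lower in Yap CKO than in control at an unadjusted p under 0.05 and none passed after adjustment; Msx1 was at 0 in 2 C57 libraries, and none was at 0 in all libraries. The 5 fibroblast markers summed to 31.4 to 45.9 CPM in Yap CKO, 45.3 to 84.0 CPM in control and 30.5 to 42.4 CPM in C57. Most of the difference between the P60 groups came from Col1a2, with means of 9.60 CPM in Yap CKO and 36.2 CPM in control. Pdgfra had 25.9 and 27.4 CPM, and Col3a1 was higher in Yap CKO, at 2.50 and 1.03 CPM in the same order. Neither collagen gene passed the test (edgeR adjusted p = 0.131 for Col1a2 and 0.158 for Col3a1). For Fstl3, by contrast, control 3 was the highest control library, at 12.5 CPM. The part of the ciliary epithelium and fibroblast markers in the Ltbp1 values was not tested.

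Smad7, the inhibitory Smad induced by the pathway itself, lies on the plus strand of chr18:75367529-75395935. It had 11.9, 11.1 and 9.16 CPM in Yap CKO, 8.65, 12.5 and 11.8 CPM in control, and 4.20, 3.55 and 3.91 CPM in C57. The 2 P60 groups overlapped and both lay well above C57. Smad7 rose by 1.47 ± 0.191 in Yap CKO against C57 (adjusted p = 0.000708) and by 1.52 ± 0.193 in control against C57 (adjusted p = 0.000624). Between Yap CKO and control the log2 fold change was -0.04 ± 0.167 (adjusted p = 0.931).

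Counted together, 1 of the 10 genes was lower and 0 were higher in Yap CKO than in control, where 0.181% of the 16539 genes tested were lower and 0.0181% were higher. At an unadjusted p under 0.05, 3 members were lower (Tgfb1, Tgfbr1 and Fstl3) and 0 higher, against 9.25% and 8.59% of all genes. The same 3 members were also those without overlap between the groups, a state found for 11.8% of all genes in this direction. The median log2 fold change was -0.17 over the 10 genes and 0.01 over all genes tested. The number called depended on the libraries: without Yap CKO 3, 4 members (Tgfb1, Tgfb2, Tgfbr1 and Fstl3) and 817 genes in all were lower and 656 genes higher, whereas without any other single library no member passed. With the rod marker level as a covariate, 3 members were lower, namely Fstl3, Tgfb1 (-0.56, adjusted p = 0.0265) and Tgfbr1 (-0.25, adjusted p = 0.0296). In that fit 903 of the 16539 genes tested were lower and 763 higher.

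Relative to C57, 5 of the 10 genes were higher in Yap CKO (Tgfb1, Tgfb2, Ltbp1, Fst and Smad7) and 7 in control (the same 5 with Tgfbr2 and Fstl3), and 0 were lower in either. Of all genes tested, 20.3% were higher and 20.2% lower in Yap CKO than in C57, and 23.1% were higher and 22.4% lower in control than in C57. The median log2 fold change of the 10 genes was 0.85 for Yap CKO and 1.30 for control, against 0.02 and 0.03 over all genes tested. At an unadjusted p under 0.05, 7 were higher and 1 (Tgfbr1) lower in Yap CKO, where 25.3% and 24.9% of all genes were, and 7 were higher and 0 lower in control, against 27.3% and 26.3% of all genes. In both comparisons 7 members lay above C57 without overlap and 1 lay below it, Tgfbr1 in Yap CKO and Tgfb3 in control. Of all genes, 27.9% and 29.4% lay above C57 in this way, and 27.1% and 29.4% below.

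**Figure D4:**
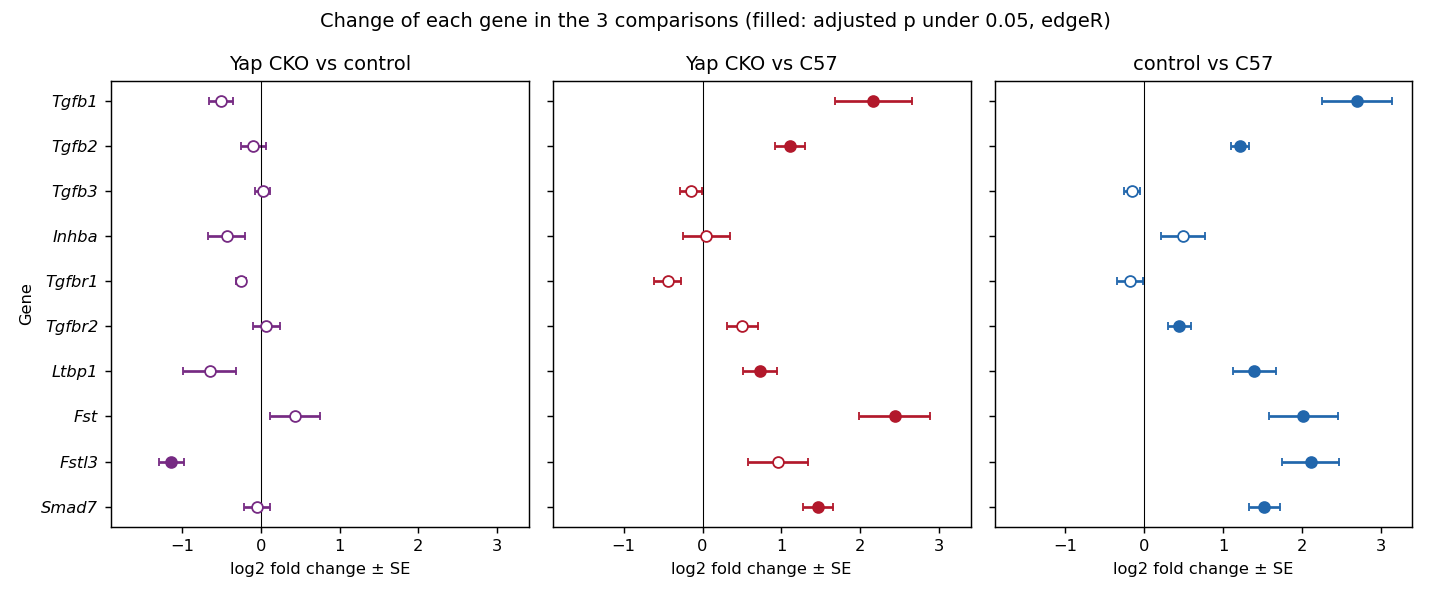
Log2 fold change of each gene with its standard error in the 3 comparisons (first-named group over second), filled where the edgeR adjusted p was under 0.05. Fstl3 is the filled point for Yap CKO against control, and 5 and 7 genes are filled to the right of 0 in the comparisons of Yap CKO and control with C57.

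A wider list of 61 genes of the TGF-beta, activin and BMP pathways was read in the same fits. Between Yap CKO and control, 0.181% of all 16539 genes tested were lower and 0.0181% higher. Of the 58 tested genes of the list, 1 was lower and 0 were higher, with a median log2 fold change of -0.14. The gene that fell was Tagln, a smooth muscle actin-binding protein gene and a classical TGF-beta target, with 4.04, 6.62 and 4.50 CPM in Yap CKO, against 14.8, 20.5 and 15.5 CPM in control (-1.75 ± 0.218, adjusted p = 0.0496). In C57 Tagln had 4.46, 4.52 and 2.27 CPM, overlapping with Yap CKO. No gene of the wider list passed between Yap CKO and control without control 1, control 2, Yap CKO 1 or Yap CKO 2, and 6 were lower without Yap CKO 3. In the fit without Yap CKO 3, 817 genes in all were lower and 656 higher. Klf10, an early TGF-beta response gene, had -0.61 (adjusted p = 0.0911). Ccn2, a target of both TGF-beta and Yap that was picked out after its values had been seen, had 19.0, 32.3 and 19.2 CPM in Yap CKO and 19.0, 17.4 and 15.5 CPM in control (0.44, adjusted p = 0.362).

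Among the 9 tested genes of latent complexes and ligand activation, 0 passed between Yap CKO and control and the median log2 fold change was -0.50. Itgav, the alpha subunit of integrins that free latent TGF-beta, was just outside the threshold. It had 163, 166 and 184 CPM in Yap CKO, against 312, 248 and 267 CPM in control, without overlap (-0.70 ± 0.0967, adjusted p = 0.0515). Its partner subunit gene Itgb8 had 71.2, 64.8 and 102 CPM in Yap CKO, against 157, 137 and 148 CPM in control (-0.90, adjusted p = 0.0873). Fbn1, which encodes the microfibril protein fibrillin, had 12.2, 14.2 and 14.4 CPM in Yap CKO, against 64.9, 43.0 and 27.0 CPM in control (-1.73, adjusted p = 0.0982). Ltbp2, picked out after its values had been seen, had 9.32, 5.69 and 11.2 CPM in Yap CKO, against 52.8, 38.3 and 19.6 CPM in control (-2.08, adjusted p = 0.125). For Fbn1 and Ltbp2, control 3 was the lowest control library, as it was for the ciliary epithelium markers, whose part was not tested. The authors' deposited table, preselected on this comparison, gives adjusted p of 0.0225 for Itgav, 0.00366 for Itgb8, 1.11e-08 for Fbn1 and 1.66e-07 for Ltbp2.

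The signalling Smads and the other receptors passed no test between Yap CKO and control. Smad3, a direct substrate of Tgfbr1, had 127, 134 and 180 CPM in Yap CKO, against 202, 194 and 195 CPM in control, and 60.6, 62.0 and 60.6 CPM in C57. The 3 groups did not overlap, with -0.42 ± 0.128 for Yap CKO against control (adjusted p = 0.158). Smad2 and Smad4 differed by -0.08 and -0.09 (adjusted p = 0.568 and 0.515). Of the receptors, Tgfbr3, the co-receptor betaglycan, had -0.58 ± 0.108 (adjusted p = 0.0746) and Acvrl1, an endothelial type I receptor gene, had 0.35 ± 0.0956 (adjusted p = 0.138).

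Against C57, 20 of 57 tested genes of the wider list were higher and 6 lower in Yap CKO, and 29 of 58 were higher and 6 lower in control. Of all genes tested, 20.3% were higher and 20.2% lower in Yap CKO, and 23.1% were higher and 22.4% lower in control, the shares against which the counts by role that follow are to be read. The median log2 fold changes of the wider list were 0.44 in Yap CKO and 0.73 in control. Of the 9 tested TGF-beta target genes, 5 were higher and 0 lower in Yap CKO, and 6 were higher and 1, Col1a1, lower in control. Klf10 rose by 1.99 in Yap CKO and by 2.61 in control (adjusted p = 5.26e-05 and 3.05e-05). Smad3 rose by 1.27 in Yap CKO and by 1.71 in control (adjusted p = 0.000528 and 1.92e-05), while Smad2 had -0.14 and -0.04 and Smad4 had -0.27 and -0.17 without passing.

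The genes that encode brakes on the pathway went in both directions against C57. Of 8 tested, 4 were higher and 1 was lower in Yap CKO, and 4 were higher and 2 were lower in control. Tgif1, a Smad co-repressor gene, rose by 2.36 ± 0.246 in Yap CKO and by 2.88 ± 0.248 in control (adjusted p = 0.000252 and 0.000120). Ski, another co-repressor gene, rose by 0.65 and 0.74 (adjusted p = 0.00848 and 0.00158), and Smad6 rose by 1.57 and 1.94 (adjusted p = 0.0141 and 0.00188) in the same order of groups. Smurf2, a ubiquitin ligase gene, was lower in both P60 groups than in C57. Among the latent complex and activation genes, 4 of 9 were higher and 1 lower in Yap CKO, and 7 of 9 were higher in control, Itgav with 1.08 in Yap CKO and 1.79 in control (adjusted p = 0.00195 and 0.000241). Fbn1, the one lower in Yap CKO (-0.64, adjusted p = 0.0173), was higher in control (1.10, adjusted p = 0.0196).

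Gdf15, a stress-induced distant member of the ligand family, had 2.68, 9.07 and 3.26 CPM in Yap CKO and 3.95, 23.6 and 6.57 CPM in control, against 4, 1 and 1 reads in the C57 libraries. It rose by 4.99 ± 0.772 in Yap CKO and by 6.19 ± 1.07 in control on the log2 scale (adjusted p = 0.00168 and 0.00250), and differed by -1.19 ± 0.900 between Yap CKO and control (adjusted p = 0.557). The activin and inhibin subunit genes Inhbb and Inha passed in none of the 3 comparisons.

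**Figure D5:**
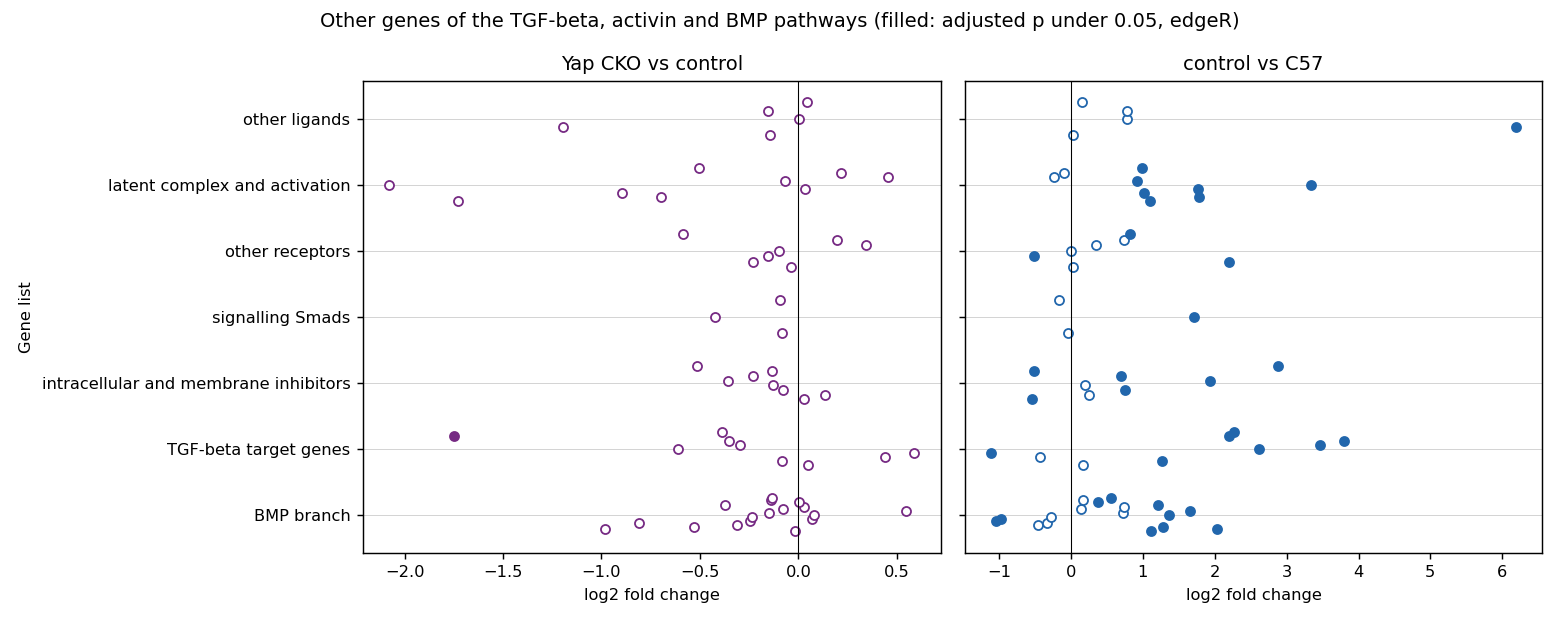
Log2 fold change of the tested genes of the wider list by role, for Yap CKO against control (left) and control against C57 (right), with filled points where the edgeR adjusted p was under 0.05 (the horizontal scales differ). Tagln is the filled point on the left, and 29 points to the right of 0 and 6 to the left of it are filled on the right.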

How the data were processed

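The 9 libraries were made from whole retina RNA with a directional TruSeq protocol, per the labels' protocols. Per the submitters' processing notes, reads were handled with HISAT2 2.1.0 on GRCm38, with featureCounts and edgeR also named; the annotation release and strand setting are not stated there. The deposited count table holds whole-number read counts, not normalized, for 47729 identifiers, of which 47224 had a symbol and 47310 were in GENCODE M21. The authors' deposited comparison table gives log2 fold changes and p-values for 305 genes, per the file headers; its 9 per-library and 8 mean columns were not used. One C57 column has a number that no sample label shares and is called the unnumbered C57 library.

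For each comparison the 6 libraries concerned were fitted alone: filterByExpr (minimum count 10, minimum total 15), TMM, and edgeR 4.0.16 quasi-likelihood F-tests (R 4.3.3), with Benjamini-Hochberg adjustment over all genes tested and a threshold of 0.05. All 10 genes passed the filter in each. Printed CPM use 1 TMM scaling over the 9 libraries. The procedure was tested on simulated data. Pairs of libraries of a group differed by more than sampling noise (chi-square per degree of freedom 24.2 to 144). Alternatives were RLE scaling, TMM without the 50 highest genes, other filters, DESeq2 1.42.0, limma-voom (limma 3.58.1), all 9 libraries in one fit, a replicate block, a rod covariate, each library left out, and, chosen after seeing the data, bias-adjusted deviances. From each group of the wider list the 3 genes with the smallest p were to be named, and most of these are described; 1 of them is not reported here. The members and lists were chosen with earlier results of these data known.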

Additional observations from a re-analysis of the deposited data

How the results depend on the processing

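Between Yap CKO and control, 1 member, 1 gene of the wider list and 30 genes in all were lower and 3 genes in all were higher. RLE scaling, TMM without the 50 highest genes, the filter of 1 CPM in 3 libraries, limma-voom and the bias-adjusted deviances each gave 0 members, 0 genes of the wider list and 14 genes in all lower and 1 gene in all higher. Without a count filter, 260 genes in all and 5 of the wider list were lower and 83 in all higher. DESeq2 called 558 genes lower and 364 higher in all, 2 members lower, and 10 genes of the wider list lower and 1 higher. The fit of all 9 libraries gave 57 genes in all and 2 of the wider list lower and 0 members. With the rod covariate 903 genes were lower and 763 higher in all, 3 members were lower, and 10 genes of the wider list were lower and 1 higher. Leaving out each library in turn gave 0 to 817 genes lower and 0 to 656 higher in all, 0 to 4 members lower and 0 to 6 genes of the wider list lower. The cause of these shifts was not tested.

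For control against C57, the replicate block gave 2 lower genes of the wider list in place of 6, and leaving out each library gave 2 to 6, with 0 to 1 members lower. In that block 1 C57 library has no number and control 3 no partner, so the value rests on replicates 1 and 2, and the C57 libraries come from an earlier series, so their numbers do not pair them with the P60 libraries; the same holds for Yap CKO against C57. For Yap CKO against C57, the fit of all 9 libraries gave 1 member lower (Tgfbr1), and leaving out each library gave 2007 to 4234 genes higher and 1881 to 3779 lower in all, 13 to 26 higher and 3 to 7 lower in the wider list, and 0 to 1 members lower.

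Sign changes arose for 5 values near 0. Between Yap CKO and control, leaving out each library gave -0.31 to 0.017 for Tgfb2 (above 0 without Yap CKO 1), -0.094 to 0.088 for Tgfb3 (below 0 without Yap CKO 3), -0.096 to 0.22 for Tgfbr2 (below 0 without Yap CKO 3 and control 1) and -0.20 to 0.061 for Smad7 (above 0 without control 2, control 3 and Yap CKO 3). With the rod covariate Tgfb3 had -0.015 and Tgfbr2 -0.011. Inhba, in Yap CKO against C57, had -0.020 under the replicate block and -0.12 to 0.16 with each library left out (below 0 without the unnumbered C57 library and Yap CKO 2). Fstl3 in Yap CKO against C57 passed in 6 of 15 alternatives.

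Of the same-numbered Yap CKO and control libraries, pair 1 deviated together (correlation 0.534) and pairs 2 and 3 did not (-0.0793 and 0.00942). Libraries of unlike number ranged from -0.608 (Yap CKO 1 with control 2) to 0.496 (Yap CKO 3 with control 2). The numbers were therefore not taken to pair the samples. The replicate block gave 42 genes lower and 3 higher in all, with Fstl3 at -1.13 (adjusted p = 0.0309) and Yap1 at -1.62 (adjusted p = 0.0732). The C57 libraries, the shallowest of the series, limit the precision of the genes with low counts there.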

Other observations

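The BMP branch, which signals through Smad1, Smad5 and Smad9, was measured with 17 genes, all tested. Between Yap CKO and control 0 passed by edgeR (at an unadjusted p under 0.05, 4 were lower and 1 was higher, against 9.25% and 8.59% of all genes). The ligand gene Bmp7 had 6.77, 5.74 and 7.72 CPM in Yap CKO, against 13.6, 12.8 and 8.92 CPM in control (-0.81 ± 0.183, adjusted p = 0.102). Bmp2 had 3.34, 4.55 and 4.88 CPM in Yap CKO, against 10.6, 8.58 and 6.06 CPM in control (-0.98 ± 0.230, adjusted p = 0.107). Both were without overlap, and for both control 3 was again the lowest control library. The part of the ciliary epithelium markers in these values was not tested. The target gene Id1 was instead higher in Yap CKO, with 17.3, 21.3 and 16.7 CPM, against 10.5, 14.0 and 13.2 CPM in control (0.55 ± 0.145, adjusted p = 0.127). Against C57, 4 genes were higher and 3 lower in Yap CKO, and 8 were higher and 2 lower in control. Of all genes tested, 20.3% were higher and 20.2% lower in Yap CKO, and 23.1% were higher and 22.4% lower in control. The receptor genes Acvr1 and Bmpr1a went opposite ways, Acvr1 with 1.08 in Yap CKO and 1.11 in control, and Bmpr1a with -1.31 in Yap CKO and -1.05 in control (adjusted p between 0.000206 and 0.00288).

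Over the 6 P60 libraries, the gene with the profile most like that of each member was Egln3 for Tgfb1 (Pearson r of log2(CPM + 1) = 0.9999), Tcf4 for Tgfb2 (0.997), Hs6st1 for Tgfb3 (0.992), Il17ra for Inhba (0.994), Rasa1 for Tgfbr1 (0.995), Ptk7 for Tgfbr2 (0.998), Gm7694 for Ltbp1 (0.998), Zkscan14 for Fst (0.987), St18 for Fstl3 (0.995) and Prmt6 for Smad7 (0.979). Among the 11727 genes compared, 123 reached r = 0.95 with Fstl3 and 146 with Tgfb2. Each gene named is the highest of 11727 over only 6 libraries, which also differ in group and in rod content, so these values are descriptions. Over all 9 libraries Gm7694 stayed first for Ltbp1, and every other member had another gene first, such as Furin for Tgfb1, Ube2e2 for Tgfb2 and Zhx2 for Fstl3.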
